A study of Homo sapiens with 18 samples.

Results

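The 10 genes described here encode heat shock proteins of the cytosol and of mitochondria and their cochaperones: HSPA1A, HSPA1B, HSPA8, HSPH1, HSP90AA1, HSPB1, HSPD1, HSPE1, DNAJB1 and BAG3. They were chosen by name, with earlier results of these data known, and all 10 were found among the 23411 gene symbols of the count data. Messenger RNA was sequenced in 18 libraries of ARPE-19, a spontaneously arising human retinal pigment epithelial (RPE) cell line, with 3 libraries in each of 6 groups. Control cells and NRF2-edited cells, kept in culture medium, were left untreated or received 0.2 mM H2O2 or 1 mM NACET, the ethyl ester of N-acetylcysteine. For the untreated cells, water (Milli-Q H2O) served as the vehicle. The study asked whether NACET acts on transcription through NRF2, the product of NFE2L2, with H2O2 as the oxidant for comparison.

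Control cells carried a Cas9 lentiviral vector without a guide RNA. The edited cells, called NRF2 ΔC here, came from the same vector with a guide against exon 5 of NFE2L2, and both edited alleles ended early, so that the C-terminal part of NRF2 was missing. All NRF2 ΔC libraries came from 1 clone, labelled C1, so that what the edit changed and what is particular to that line cannot be told apart. Treatment time and serum differ between the descriptions: the samples are described as 22 h in 1% serum followed by 2 h of treatment, the series as 40 h in 10% serum followed by 8 h. The paper matches the series, with 8 h of treatment begun 40 h after seeding, and 10% serum in all experiments after its first. Nothing in the labels says that replicates were separate cultures, so p-values measure the spread between these libraries, which may be technical. NFE2L2 itself was at 124 ± 2.44 CPM (TMM-scaled counts relative to library size) in untreated control cells and 126 ± 1.89 CPM in untreated NRF2 ΔC cells (SD, n = 3), and counts over the whole gene do not show a change within its last exon.

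Heat shock proteins are chaperones that hold unfolded proteins in a soluble state, fold them, or pass them to degradation. The HSP70 proteins, HSPA8 made at all times and HSPA1A and HSPA1B made on demand, bind short hydrophobic stretches in a cycle driven by ATP. J-domain proteins such as DNAJB1 load them with substrate, and nucleotide exchange factors such as HSPH1 and BAG3 make them let go. HSP90AA1 finishes clients such as kinases and steroid receptors, HSPB1 is a small heat shock protein that works without ATP, and HSPD1 with its lid HSPE1 forms the folding chamber of the mitochondrial matrix. Heat shock factor 1 (HSF1) drives many of these genes through heat shock elements, and NRF2 drives antioxidant genes through the antioxidant response element.

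In hg19, the build named in the submitters' notes, HSPA1A lies at chr6:31783320-31785723 and HSPA1B at chr6:31795515-31798031, both on the plus strand and each with 1 exon. Of the 2351 windows of 50 bases in the HSPA1A transcript, 75.1% also occur in HSPA1B, and reads that aligned to several places were counted on no gene, so both genes were counted mainly on the parts that differ and their split is uncertain. HSPD1 (chr2:198351308-198381461, minus strand) and HSPE1 (chr2:198364864-198368173, plus strand) lie head to head, with main start sites 539 bases apart. Of the exonic bases of HSPE1, 34.5% belong also to the read-through gene HSPE1-MOB4 and 48.2% of its windows occur in another annotated gene, so its counts are uncertain too. The shared share was 27.1% for HSPD1, 19.1% for HSP90AA1, 16.8% for HSPA8, 13.5% for HSPB1 and 2.6% for DNAJB1, with HSPD1P1, HSP90AA2P, HSPA8P1, HSPB1P1 and DNAJB1P1 sharing most, and none for HSPH1 and BAG3.

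All 10 genes had a start site window in the RefSeq promoter table (build GRCh38.p14), with 14 windows of 300 bases, 250 before and 50 after the start. The heat shock element was searched as 2 inverted units, GAANNTTC or TTCNNGAA, which together cover both strands. It was found in a window of 7 of the 10 genes (HSPA1A, HSPA1B, HSPA8, HSP90AA1, HSPB1, HSPD1 and DNAJB1), against 16.2% of the 27305 genes of the table, and in no window of HSPH1, HSPE1 or BAG3. The longer form with 3 alternating units, GAANNTTCNNGAA or TTCNNGAANNTTC, which contains the shorter one, was found for HSPA8, HSP90AA1 and HSPD1, against 0.608% of all genes. The antioxidant response element, TGACNNNGC or GCNNNGTCA, was found for HSPB1 alone, after its start, against 16.1% of all genes. The window of HSPH1 lies 484 bases upstream of its main start site, and a match of letters is no measure of binding.

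The 250 bases before the start are shown for 6 genes, the inducible HSP70 pair, 3 of the other genes that differed between treatments, and HSPD1, which did not pass the test. They lie at chr6:31783070-31783319 (HSPA1A, plus strand), chr6:31795265-31795514 (HSPA1B, plus), chr11:122932845-122933094 (HSPA8, minus), chr14:102553382-102553631 (HSP90AA1, minus), chr19:14629210-14629459 (DNAJB1, minus) and chr2:198364565-198364814 (HSPD1, minus) of hg19, where the RefSeq letters were found unchanged. Capitals mark heat shock elements of 2 or more units. BAG3 also differed between treatments, but no element was found in its window and it is not shown. A link between element and response was not tested.
HSPA1A: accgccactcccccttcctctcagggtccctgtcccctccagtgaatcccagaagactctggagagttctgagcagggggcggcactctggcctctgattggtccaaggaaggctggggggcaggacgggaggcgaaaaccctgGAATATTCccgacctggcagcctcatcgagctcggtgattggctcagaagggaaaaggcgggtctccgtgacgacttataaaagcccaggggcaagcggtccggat
HSPA1B: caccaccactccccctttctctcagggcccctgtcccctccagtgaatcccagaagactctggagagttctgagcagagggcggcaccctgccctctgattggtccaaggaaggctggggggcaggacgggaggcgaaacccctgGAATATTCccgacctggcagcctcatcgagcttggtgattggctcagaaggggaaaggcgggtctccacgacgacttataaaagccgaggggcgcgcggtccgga
HSPA8: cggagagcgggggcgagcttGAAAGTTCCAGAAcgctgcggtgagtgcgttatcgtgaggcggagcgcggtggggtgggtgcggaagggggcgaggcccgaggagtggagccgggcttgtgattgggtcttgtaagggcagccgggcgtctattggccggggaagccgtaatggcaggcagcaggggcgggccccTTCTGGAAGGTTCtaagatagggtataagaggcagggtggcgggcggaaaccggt
HSP90AA1: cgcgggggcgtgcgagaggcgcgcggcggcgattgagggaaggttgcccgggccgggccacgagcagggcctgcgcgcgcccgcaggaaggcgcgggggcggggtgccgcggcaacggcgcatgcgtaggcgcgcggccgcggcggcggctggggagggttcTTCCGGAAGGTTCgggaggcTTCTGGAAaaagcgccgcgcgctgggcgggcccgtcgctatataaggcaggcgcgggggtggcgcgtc
DNAJB1: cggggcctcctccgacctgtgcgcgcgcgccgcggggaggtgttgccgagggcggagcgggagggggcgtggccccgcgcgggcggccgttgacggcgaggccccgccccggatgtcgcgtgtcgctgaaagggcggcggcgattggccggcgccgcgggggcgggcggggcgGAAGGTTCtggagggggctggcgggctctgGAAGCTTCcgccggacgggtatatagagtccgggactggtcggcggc
HSPD1: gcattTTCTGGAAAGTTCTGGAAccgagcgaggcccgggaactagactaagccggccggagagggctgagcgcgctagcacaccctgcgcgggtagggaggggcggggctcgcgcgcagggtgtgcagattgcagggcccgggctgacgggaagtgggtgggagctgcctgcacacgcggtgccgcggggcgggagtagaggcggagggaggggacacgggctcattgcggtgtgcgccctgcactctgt
HSPA1A and HSPA1B carry 1 element of the same letters at nearly the same distance, ending 98 and 97 bases before the start. HSPA8 has 4 elements, ending 222, 217, 47 and 42 bases before the start. DNAJB1 has 2 elements, ending 69 and 39 bases before the start, and those of HSP90AA1 end 80, 75 and 60 bases before it. In HSPD1 the 3 overlapping elements lie at the far end of the window, the nearest ending 227 bases before the start. They also lie upstream of HSPE1, whose window begins at chr2:198364853 and does not reach them.

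Libraries held 16673306 to 25951154 counts on genes, and every gene of the 10 had at least 256 counts in every library. Levels of different genes are compared only as CPM per kilobase of the main transcript. On that scale HSPA8 stood highest in untreated control cells, at 773 ± 77 (SD, n = 3), followed by HSPB1 at 564 ± 14.7, HSP90AA1 at 467 ± 55.9, HSPD1 at 199.9 ± 29.3, DNAJB1 at 73.7 ± 3.38 and HSPE1 at 49.8 ± 10.8. HSPH1 (39.4 ± 2.99), BAG3 (33.4 ± 1.47), HSPA1A (16.7 ± 0.782) and HSPA1B (13.9 ± 2.53) came last. Sample ranges overlapped between HSPE1 and HSPH1 and between no other neighbours in this order, though those of HSPA1A (16.1 to 17.6) and HSPA1B (11.1 to 15.9) nearly met. HSPA8, the constitutive HSP70 gene, gave more counts per length than the inducible pair, for which length was not corrected for the shared sequence.

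The RPE identity of the cells was taken from the description of the line. Of 14 RPE markers followed, 9 were tested for H2O2 in control cells. OTX2, MITF, KRT8 and KRT18 had group means of 115 to 165, 76.5 to 165, 438 to 637 and 297 to 454 CPM. These genes alone do not establish that identity. Other RPE genes were near 0: RPE65, the retinoid isomerase, had group means of at most 0.0196 CPM, TTR of at most 0.030 CPM and RLBP1 of at most 0.309 CPM. TYRP1 was low, at 4.21 CPM in untreated control and 7.26 CPM in untreated NRF2 ΔC cells, and not every one of the 14 is given. Markers of other cell types (GFAP, PECAM1 and PTPRC) had group means of at most 0.0841 CPM, VWF reached 1.24 CPM, and CD68, which is expressed beyond macrophages, lay between 99.2 and 118 CPM. BEST1 rose under H2O2 in both lines, by a log2 fold change of 1.70 in the control line and 3.76 in the edited one, and MITF fell by 0.736 and LRAT by 0.785 under H2O2 in NRF2 ΔC cells. Under NACET the MITF difference from untreated NRF2 ΔC cells was -0.80 ± 0.15 (edgeR adjusted p = 0.0504), called once replicate numbers entered the fit as blocks. MITF was lower in NRF2 ΔC than in control cells under NACET (-0.74 ± 0.14, edgeR adjusted p = 0.0198). Of the 8 markers tested, MITF alone was called each time, against 8.82% of all genes in the former fit and 4.76% in the latter. Their part in the results below was not tested.

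**Figure D1:**
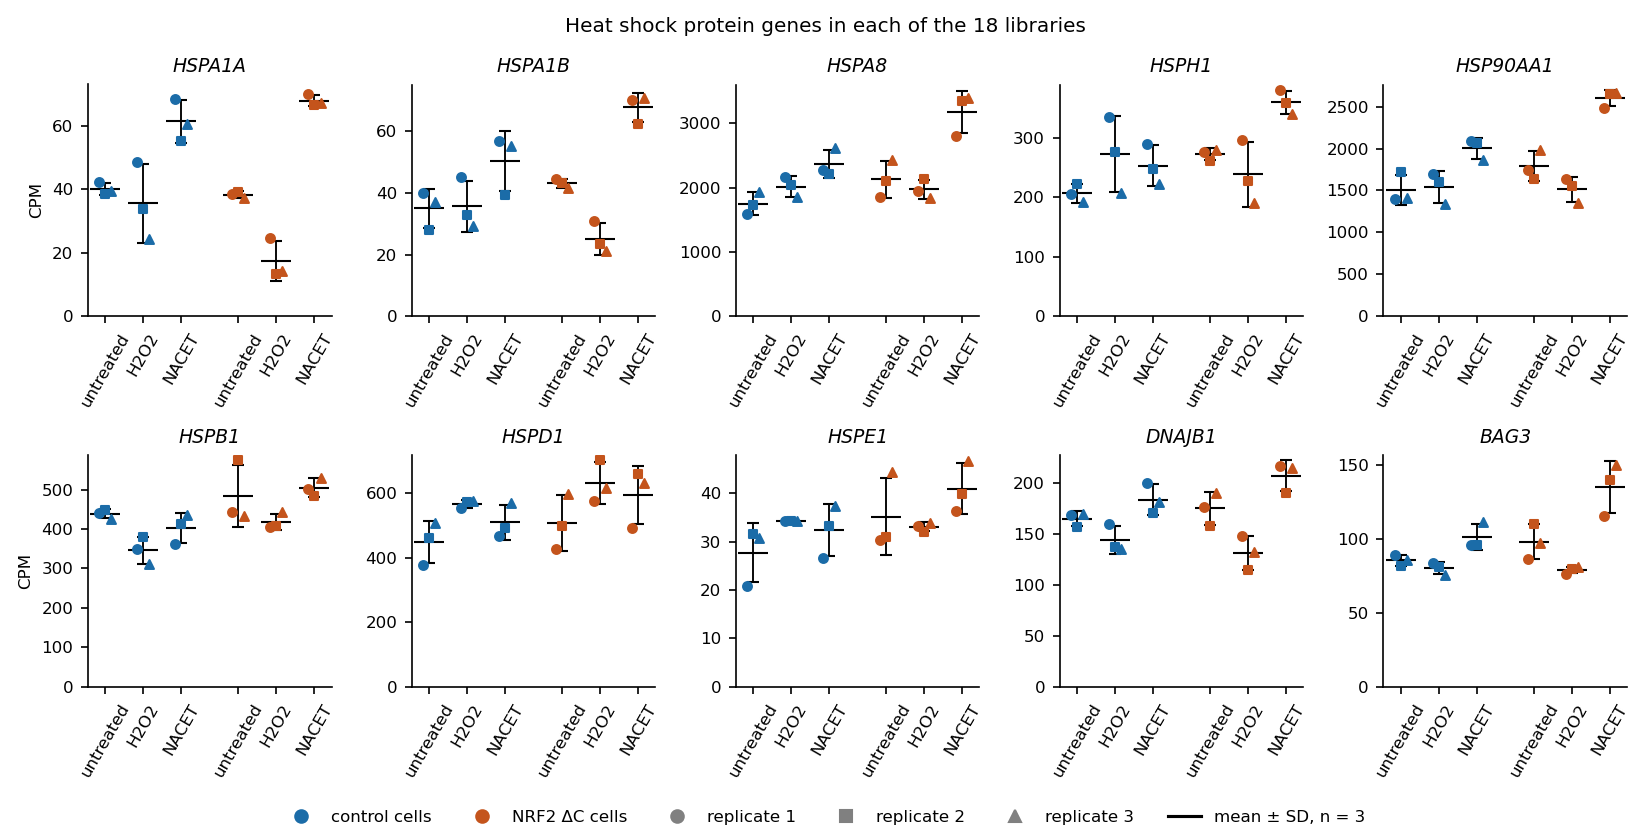
CPM of the 10 genes in each library, by cell line and treatment. Points are libraries, with the replicate number given by the symbol, and black bars show the group mean ± SD (n = 3). HSPA1A reached 66.6 to 70 CPM in NACET-treated and 13.1 to 24.7 CPM in H2O2-treated NRF2 ΔC cells.

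NACET raised HSPA1A in both lines. In control cells it measured 42.1, 38.5 and 39.5 CPM untreated (replicates 1 to 3) and 68.4, 55.1 and 60.4 CPM with NACET. All 3 treated libraries were above all untreated ones, with a log2 fold change of 0.63 ± 0.11 (SE, edgeR adjusted p = 0.0279). HSPA1A was the 1 gene of the 10 that passed the threshold (adjusted p under 0.05, with a log2 difference of 0.6 or more in either direction), against 2.75% of all 13696 genes tested. The call was lost without any 1 of the 3 untreated libraries or without NACET replicate 1 or 2, at log2 fold changes of 0.54 to 0.70 and edgeR adjusted p of 0.0686 to 0.111. It was also lost when HSPA1A and HSPA1B were summed, at 0.59 ± 0.13 (edgeR adjusted p = 0.0560).

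Replicate numbers paired the libraries within a cell line, and a fit with that replicate block is given wherever it changed a call among the 10 genes. In control cells with NACET it again called HSPA1A alone, while it called 7.49% of all genes. There the other genes except HSPB1 (edgeR adjusted p = 0.126) had an adjusted p under 0.05 and missed the fold limit alone. The same held for some of the 10 genes in each other comparison of treatments within a line. The share of all genes under that adjusted limit alone was not counted. HSPA1B was at 40.1, 27.9 and 37.02 CPM untreated and at 56.8, 39.2 and 55.3 CPM with NACET, so that the groups overlapped, yet each NACET library was above the untreated library of its number, by 0.49 to 0.58 on the log2 scale. Without the block its fold change of 0.54 ± 0.18 did not pass (edgeR adjusted p = 0.145). With the block it missed the fold limit (0.54, edgeR adjusted p = 2.91e-12). The median log2 fold change of the 10 genes was 0.28, with 9 above 0, against -0.0057 over all genes. HSPA8 (0.44 ± 0.13) and HSP90AA1 (0.42 ± 0.13) came next in size, and the lowest was HSPB1, at -0.11 ± 0.10.

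In NRF2 ΔC cells NACET raised both inducible HSP70 genes. HSPA1A went from 38.6, 39.1 and 37.1 CPM to 70.0, 66.6 and 67.1 CPM, a tight and fully separated shift of 0.81 ± 0.10 (log2 ± SE, edgeR adjusted p = 0.0182). HSPA1B went from 44.6, 43.3 and 41.7 CPM to 70.2, 62.3 and 70.9 CPM, again without overlap, with a log2 fold change of 0.63 ± 0.11 (edgeR adjusted p = 0.0359). These were 2 of the 10 genes, with or without the replicate block, against 1.39% of all genes without it and 8.82% with it. The call of HSPA1A was lost without untreated replicate 2 or 3 or NACET replicate 2 or 3 (log2 0.79 to 0.83, edgeR adjusted p 0.0781 to 0.132). That of HSPA1B was lost without any 1 untreated library or NACET replicate 2 or 3 (log2 0.60 to 0.70, edgeR adjusted p 0.0547 to 0.157).

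The other 8 genes did not pass in this comparison, and all 10 values were above 0, with a median of 0.41 against -0.0067 over all genes. HSPA8, at 1858, 2097 and 2425 CPM untreated and 2803, 3342 and 3396 CPM with NACET, differed by 0.56 ± 0.14, and HSP90AA1 by 0.52 ± 0.12. BAG3, which links HSP70 to autophagy, differed by 0.45 ± 0.14, and HSPH1 by 0.38 ± 0.11. The mitochondrial pair gave 0.21 ± 0.16 for HSPD1 and 0.20 ± 0.18 for HSPE1.

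H2O2 lowered HSPA1A and HSPA1B in NRF2 ΔC cells. With H2O2, HSPA1A was at 24.7, 13.1 and 14.2 CPM, all below the untreated 37.1 to 39.1 CPM. It fell by 1.17 ± 0.23 on the log2 scale (edgeR adjusted p = 0.0173), to 0.444 of the untreated level. HSPA1B, at 30.8, 23.4 and 21.0 CPM with H2O2, fell by 0.809 ± 0.16 (edgeR adjusted p = 0.0190), also without overlap. These 2 of the 10 genes compare with 9.81% of all 13543 genes, and the same 2 were called with the replicate block, which called 18.7% of all genes. Without untreated replicate 2 or 3, or H2O2 replicate 2 or 3, neither was called (HSPA1A -1.19 to -0.9997, HSPA1B -0.83 to -0.70 on the log2 scale, edgeR adjusted p 0.0574 to 0.104). Summed to 1 feature, the pair fell by 0.968 ± 0.18 (edgeR adjusted p = 0.0147).

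No other gene of the 10 passed in H2O2-treated NRF2 ΔC cells, and their median was -0.25, against -0.0086 over all genes. DNAJB1, at 148, 114 and 133 CPM against 177, 158 and 191 CPM untreated, did not overlap between groups and differed by -0.44 ± 0.14 (edgeR adjusted p = 0.0813). BAG3 differed by -0.34 ± 0.13, likewise without overlap (76.7 to 81.1 CPM against 86.6 to 110 CPM). HSPD1 was the single gene of the 10 with a value above 0, at 0.29 ± 0.16.

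In control cells H2O2 moved none of the 10 genes past the threshold, against 6.33% of all 13691 genes, nor with the replicate block, against 10.2%. With the block HSPA8, HSPH1, HSPB1, HSPD1, HSPE1 and DNAJB1 missed the fold limit alone (edgeR adjusted p 2.16e-05 to 0.0168). Without it, 3 of the 10 had an unadjusted p under 0.05, against 30.7% of all genes, and DESeq2 called none of the 10 either. HSPA1A was at 48.7, 33.7 and 24.1 CPM with H2O2, a spread that ran from above to below the untreated 38.5 to 42.1 CPM, and its log2 fold change was -0.17 ± 0.22. HSPA1B gave 0.03 ± 0.19. HSPH1 had the value farthest from 0, 0.40 ± 0.16, from 206, 223 and 192 CPM untreated and 335, 276 and 208 CPM with H2O2. Without the block HSPB1 came nearest to the adjusted threshold, with a log2 fold change of -0.34 ± 0.10 (edgeR adjusted p = 0.0561). It was at 348, 378 and 311 CPM against 441, 449 and 426 CPM untreated. HSPD1 differed by 0.34 ± 0.12, with a 95% interval of 0.0675 to 0.613. H2O2 and NACET were compared with the same untreated libraries, so the values of both comparisons are not independent.

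**Figure D2:**
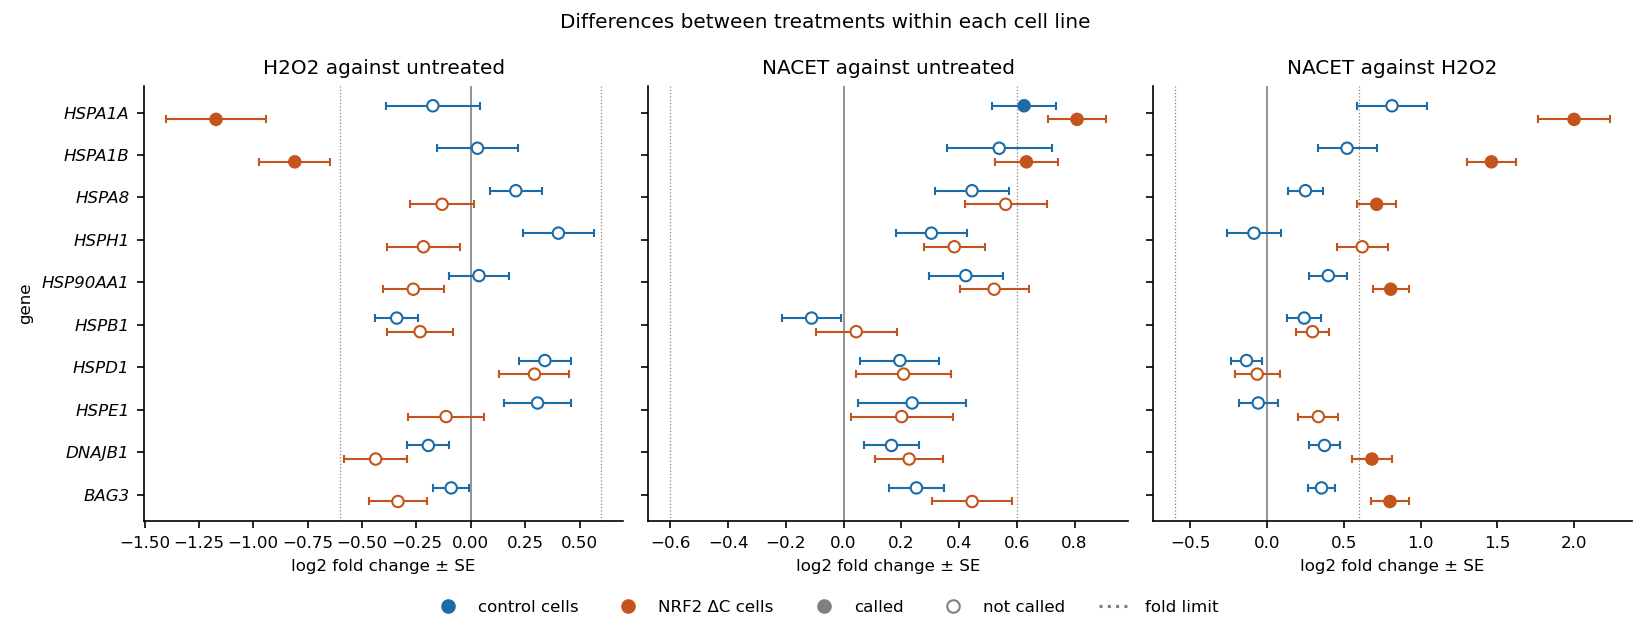
Log2 fold changes ± SE of the 10 genes between treatments, for control and NRF2 ΔC cells, from fits of 6 libraries each. Filled points passed both limits and dotted lines mark the fold limit of 0.6. Calls are seen for HSPA1A in 4 of the 6 comparisons drawn, and for 6 genes in NACET against H2O2 in NRF2 ΔC cells.

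Set against each other in NRF2 ΔC cells, NACET and H2O2 gave 6 calls among the 10 genes. HSPA1A was higher with NACET by 2.00 ± 0.24 on the log2 scale, a 4.00-fold difference (edgeR adjusted p = 0.0051), and HSPA1B by 1.46 ± 0.16, or 2.75-fold (edgeR adjusted p = 0.00467). Beyond the pair, HSPA8 was higher by 0.71 ± 0.13 (edgeR adjusted p = 0.0145), HSP90AA1 by 0.81 ± 0.12 (edgeR adjusted p = 0.00828), DNAJB1 by 0.68 ± 0.13 (edgeR adjusted p = 0.01997) and BAG3 by 0.80 ± 0.13 (edgeR adjusted p = 0.0102). These make 6 of 10, all higher with NACET, against 8.31% of all 13489 genes, and the median of the 10 was 0.70 against 0.0074 over all genes. This comparison joins the H2O2 and NACET values given above and adds no libraries to them.

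The values behind these 4 further genes were close in kind. HSP90AA1 was at 1639, 1556 and 1348 CPM with H2O2 and 2488, 2648 and 2661 CPM with NACET. HSPA8 was at 1946, 2131 and 1843 CPM with H2O2, and BAG3 at 76.7, 79.5 and 81.1 CPM with H2O2 and 116, 140 and 151 CPM with NACET. DNAJB1 reached 217, 191 and 215 CPM with NACET. In all 4 every H2O2 library was below every NACET library, and the untreated mean lay between the other means. HSPH1, HSPB1 and HSPE1 did not overlap between these groups either, though they were not called without the block. The share of all genes whose groups did not overlap was not counted in any comparison. Without NACET replicate 2 only HSPA1A and HSPA1B were called, and the calls of HSPA8 (log2 0.64 to 0.76), DNAJB1 (0.58 to 0.72) and BAG3 (0.69 to 0.79) were each lost without several single libraries. For HSPA8 these were H2O2 replicate 2 or 3 and NACET replicate 2 or 3, for DNAJB1 the same and NACET replicate 1, and for BAG3 H2O2 replicate 2 and NACET replicate 2 or 3. HSP90AA1 lost its call without NACET replicate 2 alone (0.77).

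HSPH1 fell just short in that comparison. It was at 297, 228 and 191 CPM with H2O2 and 380, 359 and 340 CPM with NACET, without overlap, and differed by 0.62 ± 0.17 (edgeR adjusted p = 0.0540). With the replicate block it was called, at 0.64 ± 0.072 (edgeR adjusted p = 2.96e-07), which made 7 of 10 genes against 15.5% of all genes, and it was also called by DESeq2 (adjusted p = 0.0114) and without H2O2 replicate 1 (0.80). HSPB1 (0.30 ± 0.11), HSPE1 (0.33 ± 0.13) and HSPD1 (-0.06 ± 0.15) did not pass. The 95% interval of HSPD1 ran from -0.40 to 0.28.

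In control cells the same comparison called none of the 10 genes, against 3.67% of all 13581 genes, while 5 of the 10 had an unadjusted p under 0.05, against 23.4% of all genes. HSPA1A differed by 0.81 ± 0.23 (edgeR adjusted p = 0.07495), with 24.1 to 48.7 CPM under H2O2 and 55.1 to 68.4 CPM under NACET. It was called with the replicate block, at 0.85 ± 0.11 (edgeR adjusted p = 5.29e-05), as 1 of 10 genes against 7.5% of all genes. DESeq2 (0.80, adjusted p = 0.00922), the fit of all 18 libraries (0.79, edgeR adjusted p = 0.0420) and the fit without H2O2 replicate 1 (1.10, edgeR adjusted p = 0.0281) also called it. HSP90AA1 (0.40 ± 0.12), DNAJB1 (0.37 ± 0.10), BAG3 (0.36 ± 0.090) and HSPA8 (0.25 ± 0.12) did not overlap between groups and did not pass. HSPH1 stood at -0.08 ± 0.18.

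Whether the H2O2 effect differed between the lines was tested as an interaction, the H2O2 log2 fold change of the edited line minus that of the control line. In the fit of 12 libraries without a block, none of the 10 genes was called, against 0.0214% of all 13987 genes, and 3 of the 10 had an unadjusted p under 0.05, against 5.76% of all genes. Those 3 were HSPA1A at -0.98 ± 0.34 (95% interval -1.73 to -0.24), HSPA1B at -0.82 ± 0.26 (-1.38 to -0.26) and HSPH1 at -0.60 ± 0.24 (-1.13 to -0.0747). The planned replicate block over both lines called HSPA1B alone (edgeR adjusted p = 0.0358), 1 of 10 against 1.18% of all genes. HSPA1A (edgeR adjusted p = 0.0682) and HSPH1 (edgeR adjusted p = 0.132) were not called in it. Numbers paired libraries less regularly between lines than within a line, and a replicate block within each cell line was added after the data had been seen. In that fit the same 3 genes were called: HSPA1A at -0.98 ± 0.22 (edgeR adjusted p = 0.0116), HSPA1B at -0.83 ± 0.16 (edgeR adjusted p = 0.00329) and HSPH1 at -0.60 ± 0.15 (edgeR adjusted p = 0.0231). They make 3 of 10, against 6.91% of all genes in the same fit.

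For HSPA1A the same-number differences between H2O2 and untreated libraries were 0.21, -0.19 and -0.71 in the control line, and those in the edited line were -0.65, -1.57 and -1.39, so the ranges overlapped at 1 library pair of each line. HSPH1 gave 0.70, 0.31 and 0.12 in control cells against 0.11, -0.20 and -0.56 in the edited line, which did not overlap. For HSPD1 the difference between the lines was -0.03 ± 0.20, with a 95% interval of -0.47 to 0.41.

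**Figure D3:**
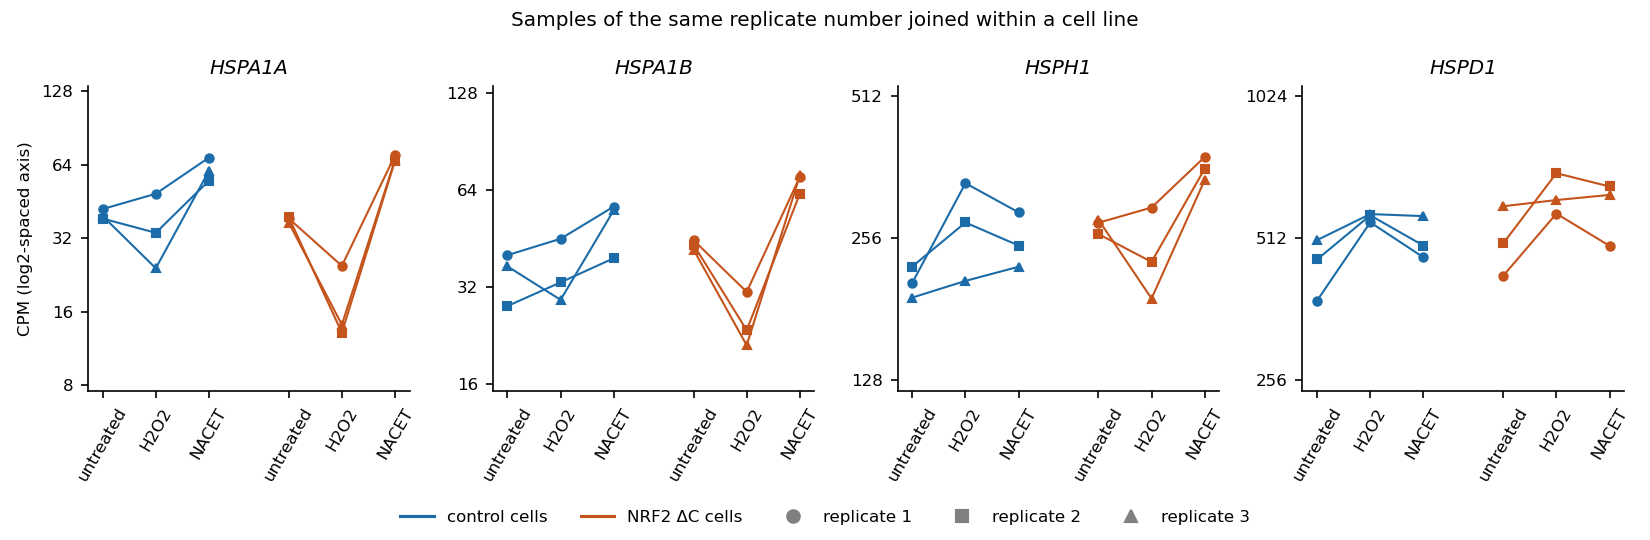
CPM of HSPA1A, HSPA1B, HSPH1 and HSPD1 on axes spaced by log2, with the libraries of 1 replicate number joined by a line within each cell line. In NRF2 ΔC cells all 3 lines of HSPA1A and HSPA1B dip at H2O2, whereas the control lines of both genes cross.

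The NACET effect did not pass the test of a difference between the lines for any of the 10 genes, against 0.0643% of all 14002 genes without a block and 0.9% with the block within each cell line, and none of the 10 had an unadjusted p under 0.05, against 1.63% of all genes. The HSPA1A difference was 0.18 ± 0.14 (95% interval -0.11 to 0.48) and the HSPA1B difference 0.09 ± 0.22 (-0.39 to 0.58).

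NRF2 ΔC and control cells were also compared within each treatment. Untreated, none of the 10 genes was called, against 3.85% of all 13710 genes, and 1 had an unadjusted p under 0.05, against 13.7% of all genes. That gene was HSPH1, at 276, 261 and 280 CPM in NRF2 ΔC and 192 to 223 CPM in control cells, higher by 0.40 ± 0.11 (edgeR adjusted p = 0.0949). HSPA1A differed by -0.06 ± 0.10, with a 95% interval of -0.30 to 0.17. The median of the 10 was 0.22, against 0.0125 over all genes.

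Under H2O2 none of the 10 was called without a block, against 5.62% of all 13580 genes. HSPA1A differed by -1.05 ± 0.30 (edgeR adjusted p = 0.07497), with 13.1 to 24.7 CPM in NRF2 ΔC and 24.1 to 48.7 CPM in control cells, ranges that just overlapped. It was called without control H2O2 replicate 3 (-1.28) and without NRF2 ΔC H2O2 replicate 1 (-1.39), and in the latter fit HSPA1B was called too (-0.70). DESeq2 called HSPA1A as well (-1.05, adjusted p = 0.00706). With the replicate block HSPA1A was called too (-1.05 ± 0.14, edgeR adjusted p = 0.000194), 1 of 10 genes against 11.2% of all genes. Numbers paired libraries less regularly between lines than within a line. Under NACET none was called, against 4.76% of all 13627 genes, although all 10 values were above 0, the median was 0.32 against -0.0016 over all genes, and 6 had an unadjusted p under 0.05, against 18.6% of all genes. HSPH1 (0.48 ± 0.13, edgeR adjusted p = 0.0862) and BAG3 (0.39 ± 0.12, edgeR adjusted p = 0.120) had the lowest adjusted p there.

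The patterns of the 10 genes over the 18 libraries are given as correlations of log2(CPM + 1), as a description, since the libraries share groups and a scale. HSPA1A and HSPA1B had a Pearson r of 0.91, and DNAJB1 followed both, at 0.89 and 0.91. HSPA8 and HSP90AA1 had 0.89, and HSPD1 and HSPE1 0.73. HSPD1 stood apart from the inducible genes, at -0.34 with HSPA1A and -0.29 with DNAJB1. Among 9808 genes with a mean of at least 10 CPM, the 3 most like HSPA1A were MBOAT2 (0.94), AGAP1 (0.94) and SNX9 (0.93). For DNAJB1 they were AGAP1, INPP5F and SLC1A1 (0.92, 0.92 and 0.91), and for HSPD1 they were UPF3B, CCT5 and BZW2 (0.97, 0.97 and 0.96). CCT5 is a subunit of the cytosolic chaperonin.

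Other chaperone genes were followed in 8 lists with 104 genes, of which 97 were tested under H2O2. The lists, too, were chosen with earlier results of these data known. In control cells H2O2 raised 5 and lowered 1 of them (HSPB3, -1.20 ± 0.25), 6 of 97 against 6.33% of all genes, and 8 with the replicate block against 10.2%, with a median of 0.18 against -0.0038 over all genes. In NRF2 ΔC cells it raised 9 and lowered 3, among them HSPB3 again (-2.13 ± 0.49), 12 of 97 against 9.81% of all genes, and 16 with the block against 18.7%, with a median of 0.24 against -0.0086. The mitochondrial chaperones and proteases gave 2 rises among 17 genes in each line, both times HSPA9, the mitochondrial HSP70, and its J-domain partner DNAJA3. HSPA9 rose from 341 ± 36 to 604 ± 59.4 CPM in control cells (0.83 ± 0.12, edgeR adjusted p = 0.00535) and from 373 ± 49.6 to 820 ± 103 CPM in NRF2 ΔC cells (1.11 ± 0.16, edgeR adjusted p = 0.0057). DNAJA3 rose by 0.68 ± 0.11 and 0.94 ± 0.16.

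Outside mitochondria, DNAJC2, a J-domain protein at the ribosome, rose under H2O2 in control (0.83 ± 0.091) and NRF2 ΔC cells (0.86 ± 0.14), as did the prefoldin subunit PFDN2 (0.67 ± 0.12 and 1.22 ± 0.22). These were 1 of 17 J-domain genes and 1 of 14 chaperonin and prefoldin genes in each line. Beside these and the following counts stand 6.33% of all genes in control and 9.81% in NRF2 ΔC cells. The genes are therefore named singly and not as a response of their lists. HSPA4L, an HSP110 relative, rose in control cells (0.70 ± 0.18), as 1 of 7 genes of the other HSP70 and HSP110 family. With H2O2 its mean was 112 CPM in control and 109 CPM in NRF2 ΔC cells. HSPA2 missed the adjusted limit in control cells (-0.66 ± 0.20, edgeR adjusted p = 0.0608). It was called there with the replicate block, which called 10.2% of all genes. In NRF2 ΔC cells HSPA2 fell by 1.11 ± 0.19 among those 7. There the small heat shock protein HSPB8, a partner of BAG3, rose from 69.2 ± 3.58 to 142 ± 23.9 CPM (1.01 ± 0.15, edgeR adjusted p = 0.00649), and BAG1, another nucleotide exchange factor, by 0.89 ± 0.19, 1 of 24 HSP90 and cochaperone genes. Of the other heat-inducible genes, ZFAND2A (0.96 ± 0.22) and IER5 (0.69 ± 0.19) rose, 2 of 14. Among the 5 genes tested of the heat shock factor list, HSF2BP, which is not itself a heat shock factor, rose by 1.86 ± 0.25. It was low, at 1.32 CPM untreated and 4.88 CPM with H2O2. HSF4 fell by 0.963 ± 0.23. HSF1 itself did not pass in either line.

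With NACET, in control cells HSPA12A rose (0.85 ± 0.13) and HSPB3, a small heat shock protein of muscle, fell by 1.56 ± 0.22, 2 of 97 against 2.75% of all genes, and 4 with the replicate block against 7.49%, by adding FKBP5 (0.91) and HSPB2 (-0.71). In NRF2 ΔC cells the HSP90 cochaperone CHORDC1 (0.62 ± 0.11) and HSPB8 (0.63 ± 0.098) rose and HSPB3 fell by 3.18 ± 0.43, 3 of 98 against 1.39% of all genes, and 6 with the block against 8.82%. HSPB3 was low throughout, at 7.59 CPM in untreated control cells and 0.274 CPM in NACET-treated NRF2 ΔC cells.

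Between NACET and H2O2 the lists had medians of -0.10 in control cells and -0.15 in NRF2 ΔC cells, against 0.0067 and 0.0074 over all genes. In NRF2 ΔC cells HSPA9 (-0.84 ± 0.14), DNAJA3 (-0.64 ± 0.14), IER5 (-0.86 ± 0.21) and HSF2BP (-1.53 ± 0.23) were lower with NACET, and FKBP5, an HSP90 cochaperone of steroid receptors (0.82 ± 0.17), and HSPA2 (0.82 ± 0.20) were higher, 6 of 97 against 8.31% of all genes, and 9 with the block against 15.5%. In control cells IER5 (-0.82 ± 0.14) and HSF2BP (-1.04 ± 0.19) were lower, 2 of 97 against 3.67% of all genes, and 4 with the block against 7.5%. Between the cell lines CRYAB, the small heat shock protein αB-crystallin, was lower in NRF2 ΔC than in control cells in all 3 treatments, by -1.22 ± 0.22 untreated, -1.09 ± 0.17 under H2O2 and -1.23 ± 0.21 under NACET. HSPB3 was lower in all 3 as well, by -1.58 to -3.19, and HSPB2 by -0.88 untreated and -0.81 under NACET. HSPB6, at 0.658 CPM in control and 2.18 CPM in NRF2 ΔC cells, was higher under H2O2 (1.73 ± 0.28). These were 3 of 97, 3 of 97 and 3 of 98 genes of the lists, against 3.85%, 5.62% and 4.76% of all genes.

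**Figure D4:**
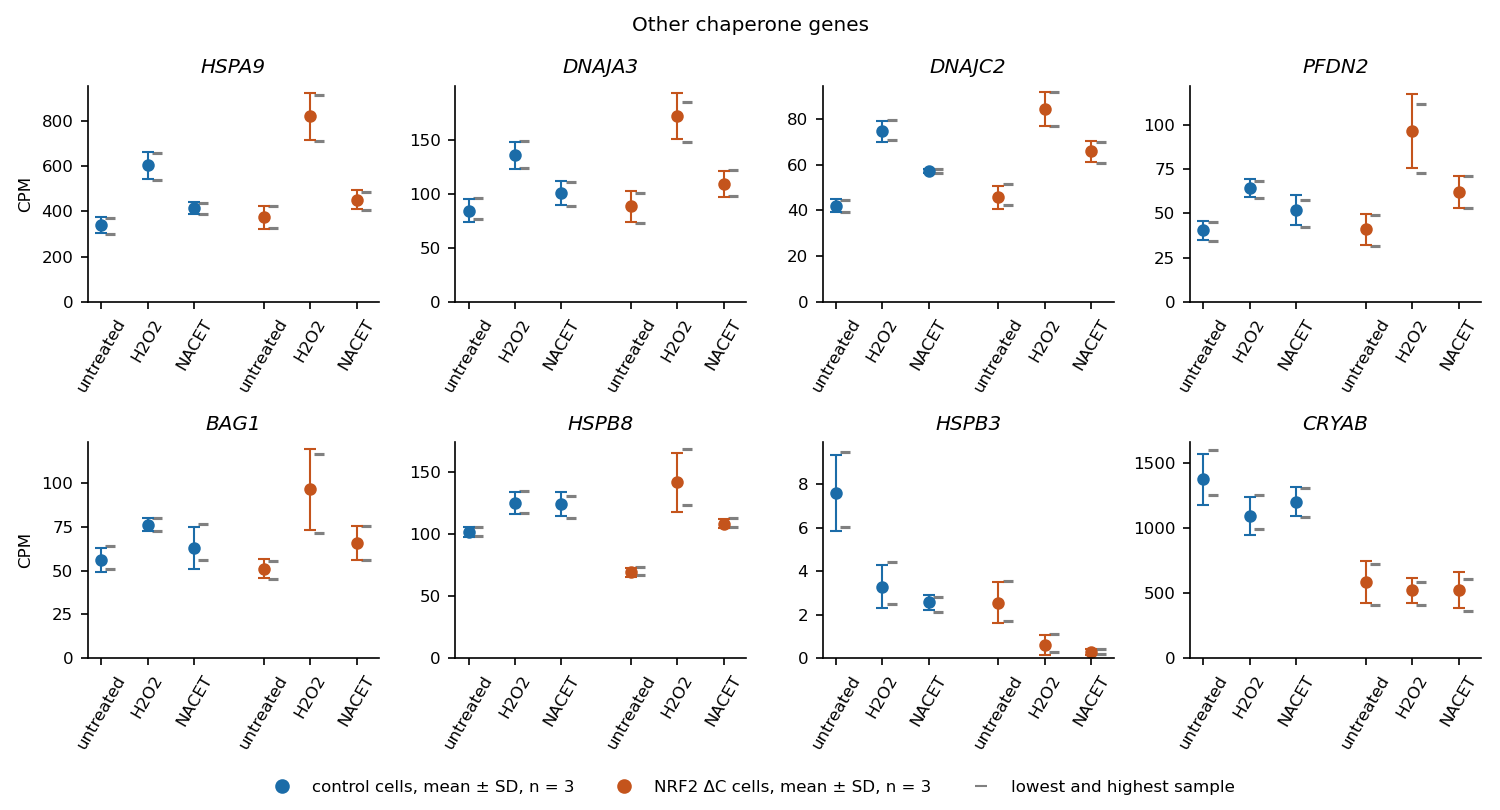
Mean CPM ± SD (n = 3) of 8 other chaperone genes by cell line and treatment, with the lowest and highest library as grey dashes. HSPA9, DNAJA3, DNAJC2 and PFDN2 are highest with H2O2 in both lines, and CRYAB is lower in NRF2 ΔC than in control cells throughout.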

How the data were processed

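Poly(A) RNA libraries were made with the TruSeq v2 kit. The authors aligned reads to hg19 with TopHat2 2.1.0 and counted them per gene with HTSeq 0.11.2, per the submitters' processing notes and the study's methods. The deposited files hold these raw counts for 23411 symbols. Reads on no gene were 15.0 to 17.5% of each library's reads, and reads aligned to several places 8.24 to 10.4%, and neither entered library sizes or tests.

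Counts were analysed with edgeR 4.0.16 (R 4.3.3): filterByExpr, TMM scaling (factors 0.968 to 1.03), quasi-likelihood tests and Benjamini-Hochberg adjustment over all genes tested. The 9 comparisons of groups used 6 libraries each and the 2 interactions 12. A call needed an adjusted p under 0.05 and, outside interactions, a log2 difference of 0.6 or more in either direction. DESeq2 1.42.0 was an alternative, with other scalings, filters, a replicate block and fits without each library. The fits were tested on simulated counts. Same-number libraries deviated together within a cell line (18 of 18 correlations, 0.442 to 0.846) and less regularly between lines (6 of 9 over 0.1, -0.259 to 0.739). Replicates of a group differed by more than sampling noise (chi-square per degree of freedom of at least 10.4). Positions and lengths came from GENCODE lifted to hg19. The genes and lists were chosen with earlier results of these data known. Named from the lists were, for each list and comparison, up to 3 called genes with the largest rises and 3 with the largest falls at a mean of at least 1 CPM, and the 3 genes most like HSPA1A, DNAJB1 and HSPD1.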

Additional observations from a re-analysis of the deposited data

Results flagged for a closer look

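The H2O2 effect differed between NRF2 ΔC and control cells for 3 genes by a test of the difference itself, and only in fits with a replicate block. The difference was -0.976 for HSPA1A and -0.60 for HSPH1 with the block within each cell line, an alternative added after the data had been seen. For HSPA1B it was -0.833, called with that block and with a block over both lines. Without a block none of the 3 was called: the edgeR adjusted p was 0.676 for HSPA1A, 0.522 for HSPA1B and 0.786 for HSPH1.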

How the results depend on the processing

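Among the values of the 10 genes over all alternatives, 1564 kept their side of the threshold, 18 crossed into a call and 36 out of one. Of all these values 34 changed sign, each from a reported value smaller than its SE, and none turned from a value larger than its SE. With HSPA1A and HSPA1B summed, the number of genes called became 0 for NACET in control cells, 1 for H2O2 and 1 for NACET in NRF2 ΔC cells. With 1 fit of all 18 libraries it became 0 for NACET in control cells, 1 for NACET against H2O2 in control cells and 1 for NRF2 ΔC against control under H2O2. DESeq2 gave 1 in each of the last 2 comparisons, and the replicate block also gave 1 in each. No filter on low counts gave 1 for NRF2 ΔC against control under H2O2. For the H2O2 interaction the replicate block gave 1, and the replicate block within each cell line 3. Leaving out 1 library gave 0 to 1 genes for NACET and 0 to 1 for NACET against H2O2 in control cells, 0 to 2 for H2O2, 0 to 2 for NACET and 2 to 7 for NACET against H2O2 in NRF2 ΔC cells, and 0 to 2 for NRF2 ΔC against control under H2O2. The cause was not tested, except that these fits hold 1 library fewer. The replicate block gave 7 in place of 6 for NACET against H2O2 in NRF2 ΔC cells, changed no count of the 10 genes beyond those named here, and raised the calls over all genes: in control cells from 867 to 1400 for H2O2, 376 to 1026 for NACET and 499 to 1019 between both, in NRF2 ΔC cells from 1329 to 2538, 188 to 1195 and 1121 to 2092, between the lines from 528 to 843 untreated, 763 to 1524 under H2O2 and 648 to 1018 under NACET, and for the interactions from 3 to 165 and 9 to 38. Between the lines the numbers paired the libraries less regularly than within a line.

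With 3 libraries a group, most calls of the 10 genes were lost in at least 1 fit that left out a single library. The lowest count of the 10 genes was 256. The conditions in the sample descriptions conflict in time and serum with those of the series and the paper.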
